A study of Mus musculus with 4 samples.

Results

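The replication-dependent histone genes are the many small genes that supply histone protein when DNA is copied. They were chosen by name alone: 63 protein-coding genes carry a current symbol of the H1, H2A, H2B, H3 or H4 cluster families, and another 4 were recognised by their older cluster name. This gave 67 genes out of 21631 that code for protein on the mouse autosomes and the X chromosome (RefSeq, GRCm38.p6). The set held 6 linker H1 genes, 18 H2A, 18 H2B, 12 H3 and 13 H4 genes. H4bc24, whose older name is Hist1h2br, was counted with H2B.

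The study mapped acetylation of histone H3 at lysine 27 (H3K27ac), a mark of active promoters and enhancers, by chromatin immunoprecipitation and sequencing. Its 2 immunoprecipitated libraries and 2 libraries of input DNA came from C57BL/6 mouse naive CD4+ T cells turned into Th17 cells, the helper T cells that make interleukin 17. All 4 libraries shared 72 h of culture with 0.25 µg/mL anti-CD3ε, 1 µg/mL anti-CD28, 0.1 ng/mL TGF-β and 20 ng/mL IL-6. The label for the treatment gives that TGF-β dose, whereas the growth protocol gives a range. The result analysed here was a single list of 56284 acetylated regions (peaks) on those chromosomes, with positions and no heights. It carried no value for either replicate and its read depth is unknown, so no replicate error or test could be given, and every comparison below is a description. All 6 Th17 marker genes had a peak in the gene or within 1 kb of it, with a median of 14018 bp of acetylated DNA, and so did 4 of 4 T cell markers. B cell markers had a peak at 1 of 3 genes (median 0 bp, 0 to 554 bp), myeloid markers at 2 of 3 (median 156 bp, 0 to 1055 bp) and fibroblast markers at 1 of 2 (0 and 131 bp). Over all protein-coding genes the share with a peak was 60.8%.

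Core histones H2A, H2B, H3 and H4 form the spool on which DNA is wound, and linker histone H1 sits where the DNA enters and leaves it. Dividing cells make most of their histones during S phase from genes that lie in clusters, lack introns and give messages that end in a stem-loop instead of a poly(A) tail. Many of the genes exist as near-copies of each other, and an H2A gene often shares its promoter with an H2B gene that points the other way. Their transcription is organised by NPAT in the histone locus body, and the stem-loop is bound by SLBP. T cells that have been stimulated through CD3 and CD28 divide fast.

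The promoters of 7 members are shown as examples of the patterns described below. Each sequence runs 5′ to 3′ on the strand of its gene, from 250 bases before the annotated start to the base before it, as given by RefSeq for GRCm38.p6. Capitals mark the letters of the TATA box (TATAAA), the CCAAT box (CCAAT) and the octamer (ATTTGCAT), 3 short motifs known from histone promoters. The letters were marked on either strand and at any position. H2ac13 faces H2bc13 and stood for the divergent H2A/H2B pairs with a short peak over both starts. H3c4 had a start inside a peak and a bare stretch just after it, H4c9 and H1f2 had a peak over the whole gene, and H2ac1, a testis gene, had no peak. H2bc23 and H4bc24 also had none, and their promoters were identical in 300 of 300 bases of the RefSeq window.
H2ac13 (chr13:21716162-21716411, plus strand): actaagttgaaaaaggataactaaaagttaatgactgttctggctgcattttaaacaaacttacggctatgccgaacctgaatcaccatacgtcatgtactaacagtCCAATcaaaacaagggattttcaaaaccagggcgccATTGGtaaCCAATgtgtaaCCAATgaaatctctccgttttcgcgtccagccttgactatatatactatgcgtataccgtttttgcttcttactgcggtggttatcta
H3c4 (chr13:23575513-23575762, plus strand): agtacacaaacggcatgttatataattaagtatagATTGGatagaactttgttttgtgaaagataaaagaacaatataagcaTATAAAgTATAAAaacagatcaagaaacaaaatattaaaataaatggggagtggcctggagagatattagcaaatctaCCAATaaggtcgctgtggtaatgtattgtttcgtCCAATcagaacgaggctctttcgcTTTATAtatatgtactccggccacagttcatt
H4c9 (chr13:22041363-22041612, minus strand): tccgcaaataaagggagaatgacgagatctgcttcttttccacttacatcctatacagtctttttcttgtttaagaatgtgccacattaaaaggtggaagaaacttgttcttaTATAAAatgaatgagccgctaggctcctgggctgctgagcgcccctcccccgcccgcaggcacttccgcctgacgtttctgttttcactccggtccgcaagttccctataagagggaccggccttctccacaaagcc
H1f2 (chr13:23738557-23738806, plus strand): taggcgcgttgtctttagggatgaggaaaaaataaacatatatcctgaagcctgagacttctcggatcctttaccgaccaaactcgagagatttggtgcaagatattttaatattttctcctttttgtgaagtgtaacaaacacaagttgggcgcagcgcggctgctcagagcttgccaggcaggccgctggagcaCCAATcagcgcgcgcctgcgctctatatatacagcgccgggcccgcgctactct
H2ac1 (chr13:23934187-23934436, plus strand): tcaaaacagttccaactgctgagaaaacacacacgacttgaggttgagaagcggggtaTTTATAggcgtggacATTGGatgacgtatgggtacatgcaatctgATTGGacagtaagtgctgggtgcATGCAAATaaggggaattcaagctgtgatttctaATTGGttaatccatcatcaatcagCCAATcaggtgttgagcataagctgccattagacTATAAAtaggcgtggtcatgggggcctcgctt
H2bc23 (chr13:21810200-21810449, minus strand): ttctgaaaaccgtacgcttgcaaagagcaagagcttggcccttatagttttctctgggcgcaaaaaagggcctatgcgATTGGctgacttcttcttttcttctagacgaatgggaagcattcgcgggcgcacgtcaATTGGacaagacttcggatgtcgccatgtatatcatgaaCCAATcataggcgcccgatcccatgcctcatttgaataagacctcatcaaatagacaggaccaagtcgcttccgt
H4bc24 (chr13:21833493-21833742, plus strand): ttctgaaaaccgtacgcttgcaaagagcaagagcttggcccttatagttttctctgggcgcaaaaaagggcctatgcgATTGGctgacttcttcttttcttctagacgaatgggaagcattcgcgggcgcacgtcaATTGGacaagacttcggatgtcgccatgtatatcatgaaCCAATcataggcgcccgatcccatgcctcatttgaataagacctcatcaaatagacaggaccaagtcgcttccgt

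The histone genes were widely acetylated in these cells. A peak lay in the gene or within 1 kb of either end at 61 of the 67 histone genes (91.0%), against 60.8% of all protein-coding genes. Histone genes are short, and short genes offer a small target: 57 of the 61 histone genes of at most 1000 bp had a peak (93.4%), against 44 of 1380 other genes of that length (3.19%). Many other short genes encode smell, taste or pheromone receptors. Without the Olfr, Vmn, Taar and Tas families, 39 of 379 other short genes had a peak (10.3%).

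Acetylated DNA filled most of the ground around these genes, in lengths near those at other acetylated genes. The median histone gene had 1909 bp under peaks in the gene and its 1 kb flanks, against 1091 bp for all protein-coding genes, a median that includes genes with no peak. Among genes with a peak the median was 1927 bp for the 61 histone genes and 2173 bp for other genes. Among genes of at most 1000 bp with a peak it was 1915 bp for histone genes and 1879.5 bp for others, with 77.2% and 65.8% of the window covered. As a share of that window, peaks took 71.5% at the median histone gene and 2.73% at the median of all protein-coding genes. The median length was 492 bp for histone genes and 17329 bp for all genes. The gene itself was covered to a median of 54.5% for histone genes and 2.01% for all genes. Only part of most histone genes lay under peaks: 13 of 67 were covered from end to end (19.4%, against 0.772% of all genes), 44 were covered in part and 10 not at all. Among genes of at most 1000 bp with a peak, 13 of the 57 histone genes were fully covered, against 26 of the 44 other genes.

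The linker genes had the highest median of acetylated DNA of any class, 2583.5 bp per gene window, and all 6 had a peak. They are also longer, with a median length of 760.5 bp against 492 bp for all histone genes. As a share of the window their median was 92.7%, against 88.3% for H4 genes, the next highest class. H1f2 had 2725 bp and lay in a single peak of 5717 bp, the widest that touched a histone gene. H1f3 had 2644 bp, H1f4 2612 bp, H1f5 2555 bp and H1f1 2002 bp. H1f2, H1f5 and H1f1 were fully covered, and H1f3 and H1f4 were covered to 86.1% and 88.7%. H1f6, which encodes the testis linker histone H1t, stood apart: it had 565 bp, 19.9% of the gene was covered, and its start was in no peak.

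**Figure D1:**
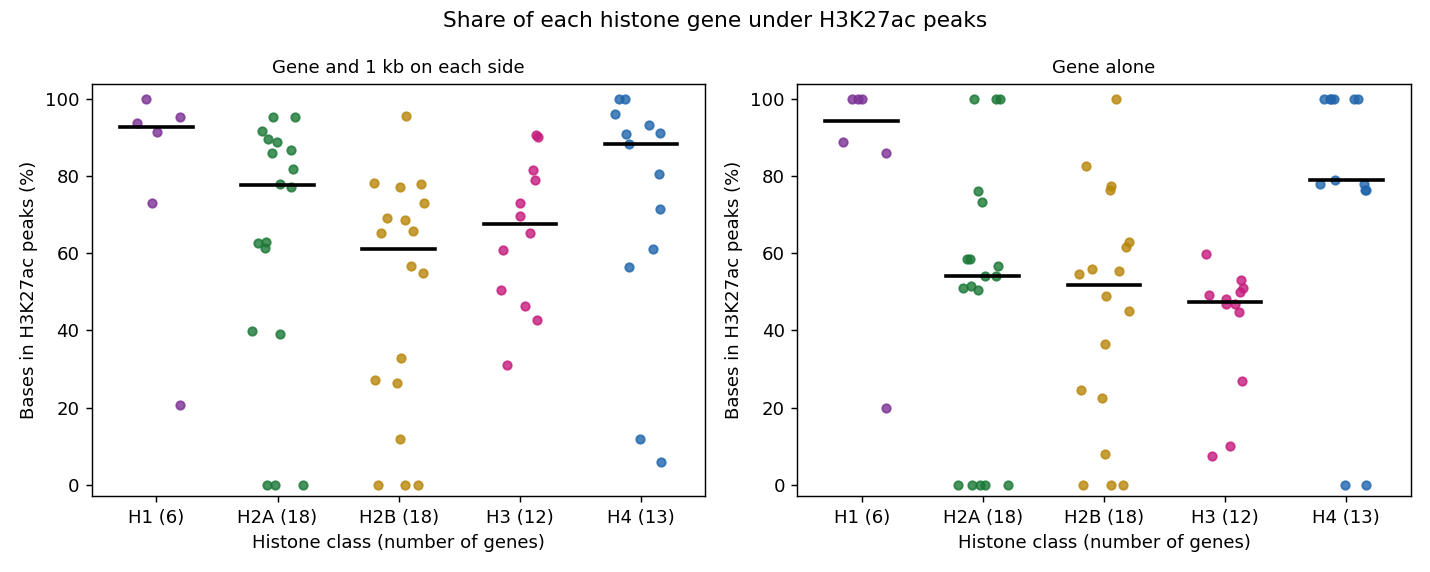
Share of bases under H3K27ac peaks for each of the 67 replication-dependent histone genes, by class, with 1 point per gene and a line at the class median. The left panel takes the gene and 1 kb on each side and the right panel the gene alone, where the H3 genes stay at or below 59.7% and 6 H4 genes reach 100%.

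The core classes differed in how much of the gene was covered. H4 genes, whose product pairs with H3 in the centre of the nucleosome, had a median of 2121 bp of acetylated DNA and 79.1% of the gene covered, and 6 of 13 were fully covered. The longest acetylated lengths in this class were 2439 bp at H4f16, 2384 bp at H4c14 and 2339 bp at H4c8. H3 genes all had a peak (12 of 12), yet 0 of 12 were fully covered. Their median coverage of the gene was 47.5% and the highest was 59.7%, at H3c7. H3c1 had 2266 bp, H3c13 2256 bp and H3c8 2034 bp of acetylated DNA.

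H2A and H2B form the dimers that flank the H3 and H4 core, and 15 of 18 genes of each class had a peak. H2A genes had a median of 1933 bp of acetylated DNA and 54.0% of the gene covered. The longest lengths were 2358 bp at H2ac21, 2356 bp at H2ac20 and 2295 bp at H2ac10. H2B genes had a median of 1758 bp and 51.7%. H2bc6 had 10392 bp, H2bc4 2802 bp and H2bc21 2566 bp, all 3 being among the 6 histone genes annotated as longer than 1000 bp, and H2bc6 spans 37455 bp in the annotation.

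Histone genes lie on 4 chromosomes, and each of these held peaks at them. Chromosome 13 carries 54 of the 67 genes, of which 48 had a peak. They fell into 4 groups when split wherever neighbours were more than 100 kb apart. The group with most members, 233.4 kb from 23531044 to 23764412, had a peak at 29 of 29 genes, and peaks covered 26.4% of it. The first group, 121.8 kb from 21715711 to 21837530, had a peak at 14 of 18 genes with 17.1% covered, and the second, 8.5 kb from 22035122 to 22043658, at 5 of 5 with 51.7% covered. The last group holds the testis genes H2bc1 and H2ac1, had a peak at 0 of 2 genes, and was not covered at all.

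Acetylation thinned out between the groups. Peaks covered 5.39% of the 197.6 kb between the first and second groups, 1.30% of the 1487.4 kb between the second and the largest, and 0.626% of the 169.3 kb between the largest and the last. The whole of chromosome 13 was covered to 2.48%. The other protein-coding genes between the first and last member of a cluster had a peak at 8 of 50. None of the 36 pheromone receptor genes of the Vmn1r family among them had a peak, and 8 of the other 14 genes did, with Pom121l2 (2046 bp), Prss16 (1479 bp) and Abt1 (1419 bp) the longest.

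**Figure D2:**
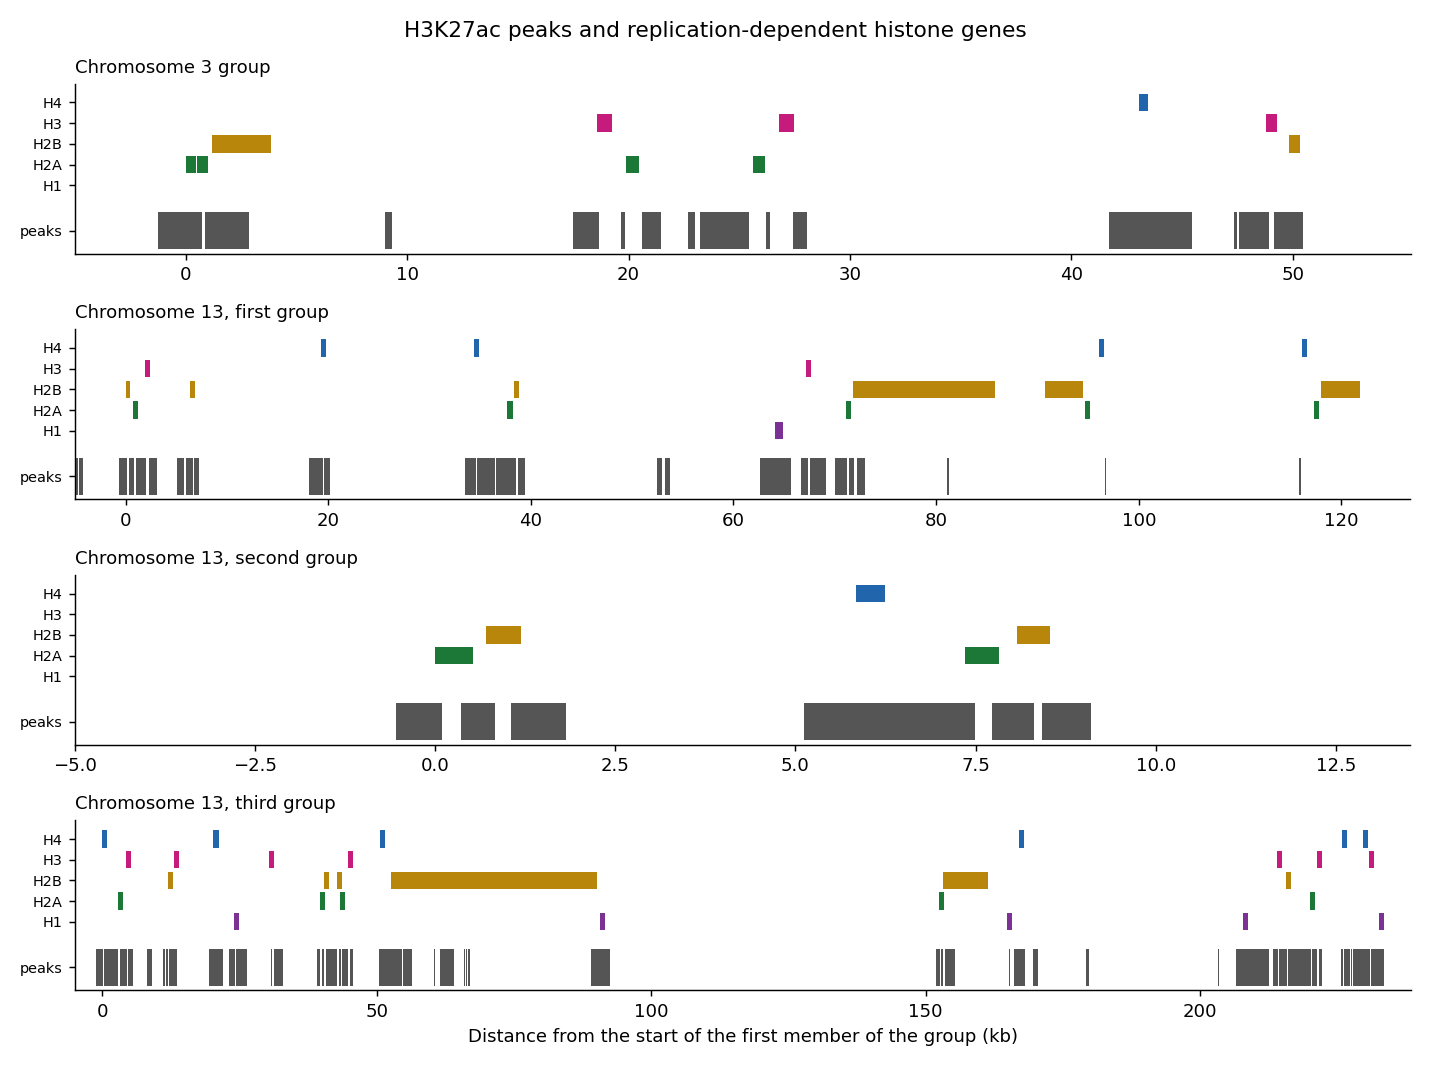
H3K27ac peaks (grey bars) and histone genes (coloured by class, 1 row per class) in the 4 largest groups, against the distance in kb from the start of the first histone gene of the group. Peaks sit at the histone genes and leave most of the ground between them bare, and the right-hand end of the first chromosome 13 group has 6 histone genes with nearly no peak.

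The smaller clusters were acetylated too. On chromosome 3, 10 histone genes between 96219885 and 96270192 all had a peak, and peaks covered 29.8% of the 50.3 kb, against 2.0% of the chromosome. H2ac21, H2ac20 and H2bc21 stood at 1 end under 2 peaks. At the other end H3c13 and H2bc18 had 2256 bp and 1415 bp, and H4c14 lay inside a peak of 3742 bp. The middle of this cluster held H3c15, H2ac19, H2ac18 and H3c14, with 1228, 1012, 1016 and 828 bp of acetylated DNA and at most 10% of the gene covered.

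Chromosome 11 carries H2bu2 and H2aw, with 811 bp and 2176 bp of acetylated DNA and 48.9% and 100% of the gene covered. H4f16 is the only member on chromosome 6, from 136803993 to 136804431, and lay inside a single peak of 3090 bp.

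Neighbouring histone genes shared peaks. In all, 90 peaks touched a histone gene or its 1 kb flanks, of which 50 touched 1 gene, 34 touched 2 and 6 touched 3, so that 45 histone genes shared at least 1 peak with another and 16 did not. The counts per gene are therefore not independent. These peaks had a median width of 858 bp, against 651 bp for the 38856 peaks that touched any protein-coding gene in the same way, and 26.7% of them were under 500 bp wide, against 42.7%. The larger set includes peaks deep inside long genes, since the median gene length is 17329 bp, against 492 bp for histone genes. The widths were therefore not matched for position in the gene. When peaks at most 1000 bp apart were joined, 35 stretches remained and 18 of them touched more than 1 histone gene. The longest of these, 15525 bp from 23737684 to 23753208 on chromosome 13, held H1f2, H3c3, H2bc3, H2ac4 and H3c2. Another of 6492 bp, from 23570208 to 23576699, held the 5 genes H2ac8, H2bc8, H2bc7, H2ac7 and H3c4.

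Partial coverage had a regular shape. In many histone genes the start lay in a peak, the peak ended a little way into the gene, and a second peak began further on. This pattern was seen in the data first and then defined: the start base lies in a peak, an uncovered base follows within 500 bp, and a peak is met again within 1000 bp. An annotated start was at hand for 62 of the 67 genes, and 48 of these starts were in a peak (77.4%), against 49.1% of 17212 other genes. A gap of this kind followed in 35 of the 48 histone genes (72.9%), against 150 of 8456 other genes whose start was in a peak (1.77%). Counted over all genes with an annotated start, the gap was found in 56.5% of histone genes and 0.871% of other genes. The count fell to 22 of 38 with peaks of at least 500 bp, to 23 of 48 when the gap had to be at least 150 bp wide, and to 0 of 51 when peaks at most 1000 bp apart were joined. Among other genes of at most 1000 bp, 30 starts were in a peak and 0 had a gap.

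The width of the gap differed by class. All 8 H3 genes with a start in a peak had one, with a median width of 255 bp (240 to 373 bp), beginning a median of 105.5 bp after the start. In H2A genes 10 of 13 had a gap with a median width of 220 bp, and in H2B genes 10 of 12, with a median of 210 bp. In H4 genes the gap was seen in 5 of 10, and its widths of 83 to 100 bp did not overlap with those of H3. Only 2 of 5 H1 genes had a gap, H1f3 (108 bp) and H1f4 (88 bp). In the 150 other genes with a gap the median width was 141 bp (76 to 859 bp), a range that holds the widths of every class.

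Gap positions were close together in H3 and H4 and spread more widely in H2A and H2B. The first bare base lay 95 to 132 bp after the start in H3 genes and 164 to 221 bp in H4 genes, against 102 to 217 bp in H2A and 91 to 350 bp in H2B genes. In H3c4 the gap ran from base 106 to base 373 after the start, in H3c10 from base 108 to base 360, in H3c2 from base 107 to base 358 and in H3c11 from base 105 to base 361. The widest, 373 bp, was in H3c6. Of the H4 genes, H4c11 was bare from base 188 to base 287 and H4c12 from base 177 to base 272. All 35 gaps lay wholly inside the annotated gene.

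**Figure D3:**
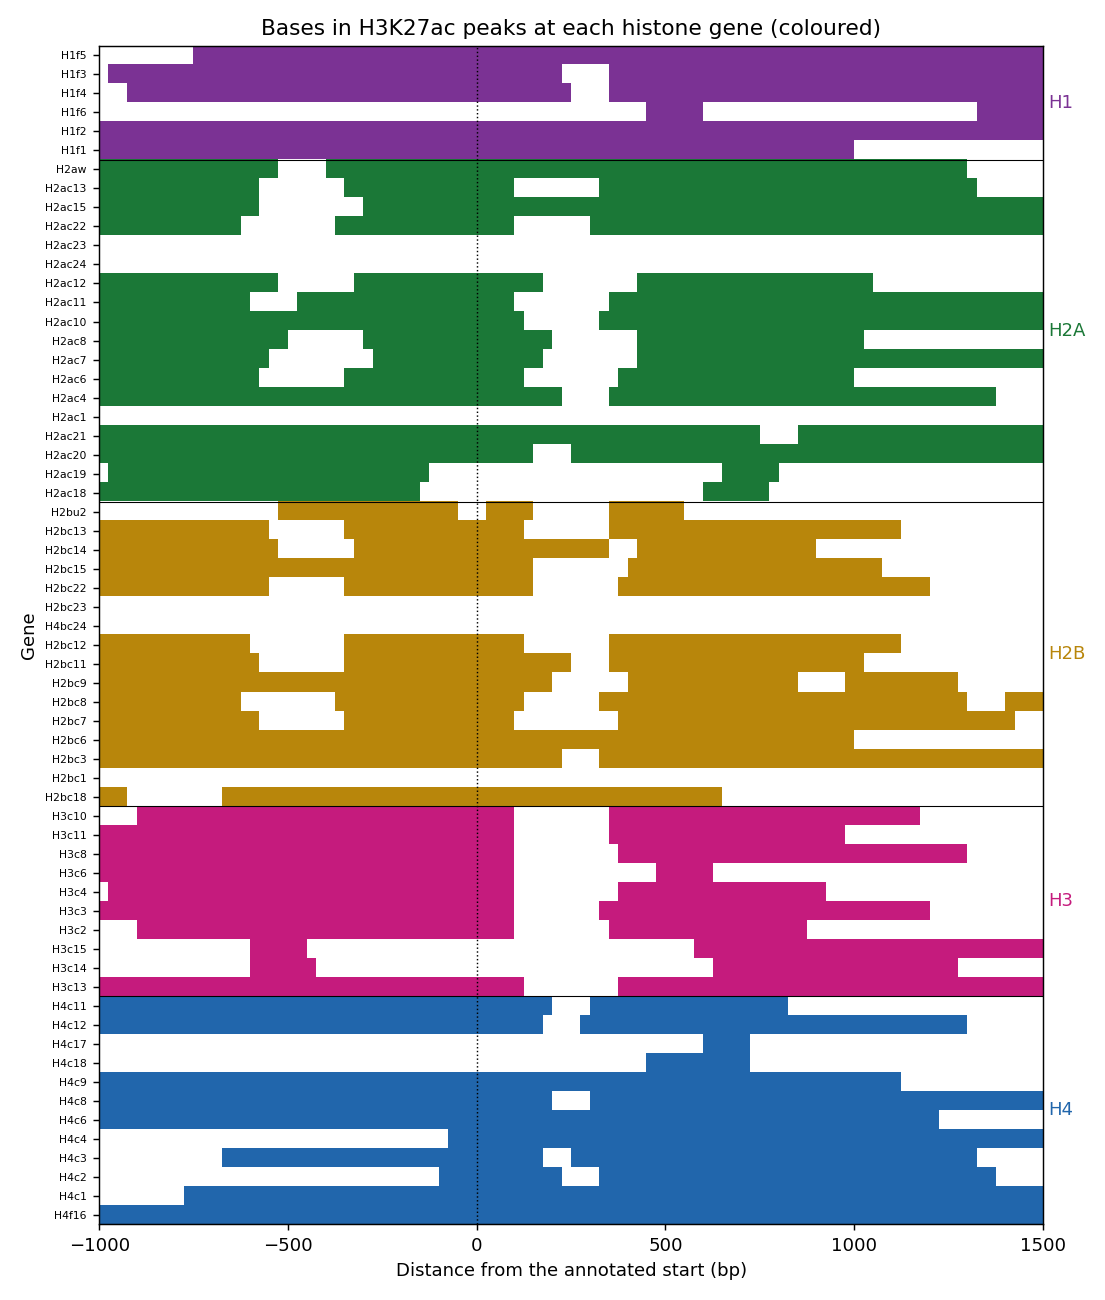
Bases under H3K27ac peaks (coloured) and bare bases (white) at the 62 histone genes with an annotated start, in steps of 25 bp from 1000 bp before the start (dotted line) to 1500 bp after it, in the direction of the gene. A white column with a median width of 255 bp runs through 8 of the 10 H3 genes, similar ones through most H2A and H2B genes, and a narrower one through 5 H4 genes.

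The mean profile showed the same dip. Over the 62 histone genes, peaks covered 71.2% of bases in the 500 bp before the start, 27.1% at 250 to 299 bp after it and 78.2% from 500 to 1000 bp after it. In the 56 of these genes with a peak the values were 78.8%, 30.0% and 86.6% in the same order. In the 10562 other genes with a peak, coverage was 70.3% before the start, 63.6% from 500 to 1000 bp after it and 81.1% at 250 to 299 bp. In H3 genes it was 0% at that distance, in H2B 18.8%, in H2A 21.7%, in H1 50.7% and in H4 57.0%.

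**Figure D4:**
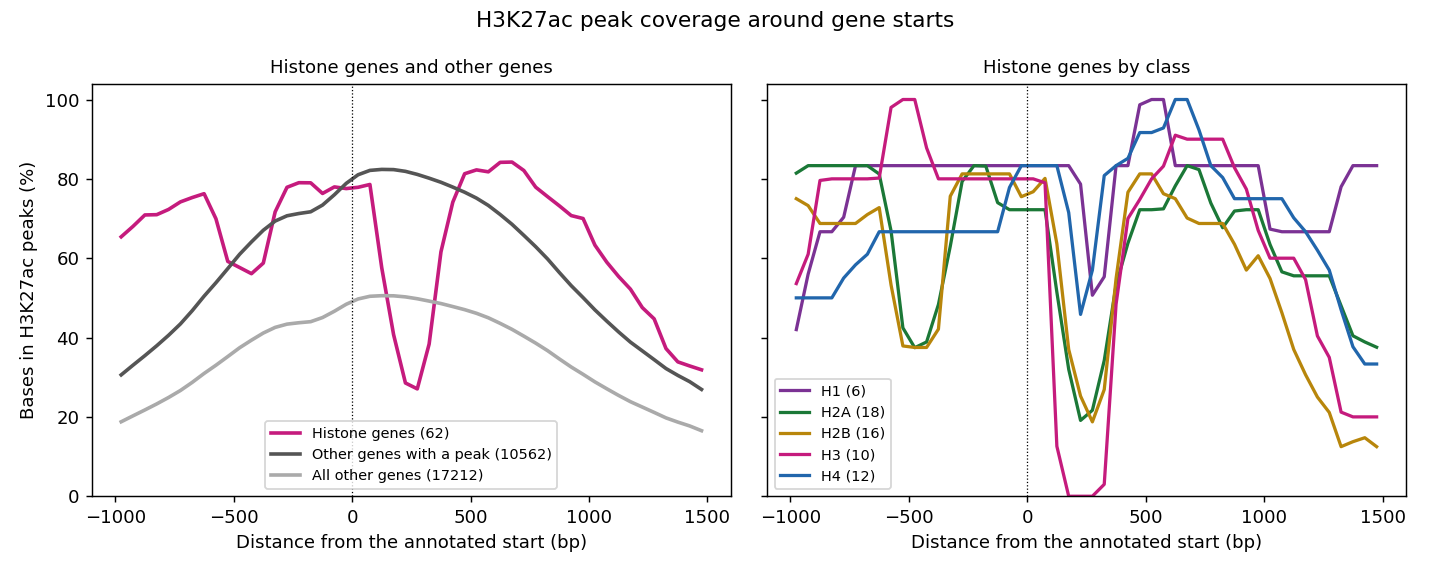
Percentage of bases under H3K27ac peaks in steps of 50 bp around annotated starts, from 1000 bp before to 1500 bp after. The left panel sets the 62 histone genes, which dip to 27.1%, beside other genes with a peak and all other genes, and the right panel splits the histone genes by class, with H3 at 0% and H4 and H1 dipping least.

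A second annotated start in the 1000 bp after the start was rare at these genes. Both histone genes with another start in the 1000 bp after theirs had a start in a peak, and 1 of the 2 had a gap. Of the 46 histone genes with a start in a peak and no other annotated start in the next 1000 bp, 34 had a gap. The peak after such a gap could still cover a neighbour's start further on. In H2ac7 that peak ran from 23574795 to 23575868 and held the start of H3c4 at 23575763. In H3c13 it ran from 96269032 to 96270360 and held the start of H2bc18 at 96269700. Gaps of this kind were not counted, and the part of neighbouring promoters in the second peak was not tested. Among other genes with a start in a peak and another start in the next 1000 bp, 4 of 258 had a gap (1.55%). Starts absent from the table, those of 5 histone genes included, could not be counted. Peaks close to each other were common in the list as a whole, where 26.9% of all gaps between neighbouring peaks were at most 300 bp and the smallest was 76 bp. Coding sequences of a histone class are near-copies of each other, and reads from such a stretch may fit several places in the genome. How the submitters treated such reads is not given in the sources used here, and the coding sequences were not analysed here, so bare stretches inside these genes are uncertain and the part of read mapping was not tested.

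Many H2A and H2B genes faced each other across a shared promoter. Among genes with an annotated start there were 10 such divergent pairs with starts 164 to 281 bp apart, counting H4bc24 as H2B. Neighbours without one, such as H2bc4 beside H2ac6, where a peak of 490 bp lay between 23683827 and 23684316, could not be counted. In 7 of them a single peak covered both starts. That peak was short in 6 pairs, with widths of 432, 472, 481, 483, 506 and 592 bp, and each of those 6 had a gap inside both genes. A peak this short over both starts has to end within 500 bp of each, so that part of the gap definition follows from the widths. At H2bc13 and H2ac13 the shared peak ran for 472 bp, and the gaps that followed were 209 bp and 206 bp wide. The exception was H2ac15 and H2bc15, under a peak of 1900 bp, where H2ac15 was fully covered and H2bc15 had a gap of 263 bp. The other 3 pairs had no peak.

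The 6 histone genes without a peak were those 3 pairs. H2bc1 and H2ac1 encode testis forms of H2B and H2A, and the nearest peaks were 9840 bp and 10552 bp away. The other 4, H2bc23, H2ac23, H2ac24 and H4bc24, stand at the right-hand end of the first chromosome 13 group, with the nearest peaks 2140, 1421, 1266 and 1985 bp away. H4c17 and H4c18 lie among them and had small peaks in the flank, giving 140 bp and 282 bp, with 0% of the gene covered.

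Most of the uncovered genes had a near-copy. Among the 62 histone genes with a RefSeq promoter, 5 pairs on different stretches of the chromosome shared an identical run of at least 200 of the 300 bases: H2bc23 with H4bc24 (300 bases), H4c17 with H4c18 (285), H3c14 with H3c15 (231), H2ac18 with H2ac19 (219) and H2ac23 with H2ac24 (200). Of these 10 genes 8 had no covered base, H3c14 was covered to 7.53% and H3c15 to 10%, and 0 of the 10 starts were in a peak. Of the other 52 genes 2 had no covered base, the testis genes H2bc1 and H2ac1, and 48 starts were in a peak. The longest run shared between any of those 52, leaving out windows that overlap, was 72 bases. Of the 10 histone genes with no covered base, 8 were thus in such a pair. The values of the paired genes are uncertain, since a read from 1 copy may fit the other as well, and the part of that in the missing peaks was not tested.

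The promoter letters differed by class. CCAAT, searched on both strands with overlaps between motifs allowed, was found in the 300-base window of 53 of 62 histone genes (85.5%), against 39.4% of 17274 protein-coding genes. All H1, H2A, H2B and H3 genes had it, and 3 of 12 H4 genes. TATAAA was found in 35 of 62 histone promoters (56.5%), against 13.4% of all. These letters were counted at any position of the window and on either strand, so this is no count of working TATA boxes. In H4c9 they began 137 bases before the start, and in H2ac12 and H2ac7 they lay after it. The octamer ATTTGCAT was found in 13 of 62 (21.0%), against 1.73% of all, in 7 of 18 H2A and 6 of 16 H2B promoters and in 0 H1, H3 or H4 promoters. The windows of facing H2A and H2B genes overlap, so these counts are not of separate sites. The same octamer was counted for both H2ac12 and H2bc12, for both H2ac8 and H2bc8, and for both H2ac1 and H2bc1. Some CCAAT and TATAAA sites were likewise counted for both genes of a pair. H2ac1, which had no peak, held all 3 motifs in the sequence shown above, and H4c9, which was fully covered, held a single TATAAA there.

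The genes that serve the histone supply were acetylated as well. All 32 genes of a list for histone transcription, message processing and histone delivery had a peak, against 60.8% of all protein-coding genes. Their median of acetylated DNA was 2870.5 bp, against 2173 bp for other genes with a peak. These genes are long, with a median length of 24913.5 bp. Peaks covered a median of 8.15% of the gene, near the 7.12% of other genes with a peak. The longest were at Hira, a chaperone for histone H3.3 (8810 bp), Eri1, an exonuclease that acts on the stem-loop (8780 bp), and Cpsf2, a subunit of the cleavage machinery (5752 bp). Npat had 3566 bp, Slbp 3099 bp and Casp8ap2, also a protein of the histone locus body, 2393 bp. The shortest was 874 bp at Chaf1b, a subunit of the assembly factor CAF-1. Of these genes 29 had an annotated start in a peak and 0 had a gap after it.

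Replication-independent histone genes, which include variants made throughout the cell cycle and forms made only in germ cells, were set beside them. Of 16 such genes, 12 had a peak, against 60.8% of all protein-coding genes. Macroh2a1 (4560 bp), H2az1 (3913 bp) and H3f3a (3189 bp) had the most acetylated DNA. H1f7, H2ab2, H2ab3 and Hils1 had no peak. Where the start was in a peak, a gap followed in 35 of 48 replication-dependent genes, against 1 of 10 replication-independent ones, H1f8, the oocyte linker histone (242 bp). H2ax, the variant phosphorylated at DNA breaks, was fully covered.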

How the data were processed

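H3K27ac ChIP-seq of 2 immunoprecipitated and 2 input libraries was reduced by the authors to 1 deposited list of peak positions, with no score, signal or replicate. Per the submitters' processing notes, Bowtie2 2.3.4.1, SAMtools 1.9, MACS2 2.2.6, deepTools and GRCm38 (mm10) were used. No source used here gives the peak threshold, the treatment of reads that fit several places, or whether replicates were pooled. Peak starts were read as counted from 0 and are printed counted from 1.

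The list held 56285 peaks, and 56284 of them, on the autosomes and the X chromosome, were used. With Python 3.11.15, numpy 2.4.6 and pandas 2.3.3, peaks were counted for each gene with 1000 bp on each side (overlap of at least 1 bp), using RefSeq gene positions. Annotated starts and promoters were matched by gene identifier for 62 histone genes. Of 18 names of replication-independent histones 16 matched. The members and gene lists were chosen with earlier results of these data known. Histone genes were named by class, by longest acetylated length, or by lack of a peak, and every one outside chromosome 13 was named. Those named for gaps and shared promoters were chosen after their values were seen. Counting was tested on simulated data. Read depth is unknown, so no interval is given.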

Additional observations from a re-analysis of the deposited data

How the results depend on the processing

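The number of histone genes with a peak was 61, and it ran from 52 to 65 over 10 other settings: other flanks, a minimum overlap, the peak midpoint, wider peaks only, joined peaks, and without testis genes. The share of all genes with a peak ran from 49% to 63.8% in the settings that could change it. With flanks of 2500 or 5000 bp, H2bc1 and H2ac1 were the only histone genes without a peak. No paired analysis was possible because the list holds no value for either replicate, and for the same reason no replicate could be left out.

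Lengths and widths moved with the setting. The median acetylated length was 289 bp with no flank, 1215 bp with 500 bp, 3028 bp with 2500 bp and 4408 bp with 5000 bp on each side. It was 1571 bp for peaks with their midpoint in the window, 1853 bp with an overlap of at least 200 bp, 1689 bp and 1133 bp for peaks of at least 500 and 1000 bp, and 2124 bp with joined peaks. The median share of the gene covered was 50% by midpoint, 49.2% and 23.2% for peaks of at least 500 and 1000 bp, and 100% with joined peaks. The median width of peaks that touch histone genes was 1009, 899.5, 822.5 and 822.5 bp for the 4 flanks in the same order, 822.5 bp by midpoint, 1012 bp with an overlap of 200 bp, 1182.5 bp and 1679 bp for the wider peaks, and 3131 bp when joined. Peaks of at least 1000 bp left 42 peaks that touch histone genes and 4 other genes inside the clusters with a peak. Joining left 35 peaks. Chromosome 11 kept 1 of 2 genes for peaks of at least 500 bp and of at least 1000 bp.

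The gap after the start, whose settings were chosen after seeing the data, was found in 22 of 38 histone genes with a start in a peak when peaks had to be at least 500 bp wide, against 0.549% of other genes with a start in a peak. It was found in 23 of 48 when a gap of at least 150 bp was asked for (0.828%), in 29 of 49 with peaks at most 100 bp apart joined (1.31%) and, by construction, in 0 of 51 with peaks at most 1000 bp apart joined.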

Other observations

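Transfer RNA genes are interleaved with histone genes on chromosome 13. A peak lay in or within 1 kb of 34 of the 77 tRNA genes between the first and last histone gene there (44.2%), against 163 of 331 tRNA genes elsewhere (49.2%). The 4 histone pseudogenes recognised by the same names all had a peak, against 60.8% of all protein-coding genes. Most of these peaks were not separate from those of the histone genes. H2ac5-ps lay inside a peak that touched H3c3 and H2bc3. The peaks at H2bu1-ps also touched H2aw, and those at H2ac14 also touched H2bc14. H2ac5-ps had 2059 bp of acetylated DNA and was fully covered, H2bu1-ps had 2022 bp, H2ac14 had 1701 bp and H2af-ps2 had 122 bp.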
